A study of Mus musculus with 9 samples.

Results

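Manf, Creld2, Sdf2l1, Dnajb9 and Dnajb11 encode proteins of the endoplasmic reticulum (ER) that are known as targets of the unfolded protein response, and the sites of the transcription factor XBP1 around these 5 genes were described in mouse liver. Chromatin immunoprecipitation with the XBP1 antibody M-186 and sequencing gave 8 lists of called regions (peaks), 1 library and 1 list per condition. A peak was counted for a gene where its midpoint fell in a fixed window of the mm9 genome around it, and 66 of the 64078 peaks of the 8 lists did so. All mice were C57Bl6-J with a wild-type genotype, and surgery was done at 8 weeks of age. Of the libraries, 3 came from livers in which XBP1 had been silenced for 7 days with an adenovirus that expresses a short hairpin RNA against it (shXBP1). They were taken without surgery (basal), 6 h after removal of part of the liver (partial hepatectomy) and 48 h after it. The other 5 libraries were unsilenced and came from basal liver, from liver 6 h after hepatectomy and 6 h after a sham operation, and from liver 48 h after hepatectomy and 48 h after a sham operation. Clodronate liposomes, which deplete macrophages, preceded the virus by a day, and a virus with a hairpin against LacZ is named as control in the protocols. Whether the unsilenced livers received that virus or the liposomes, and whether a library held the tissue of 1 mouse or of several, is not given in the sources used here. Liver is a mixture of cell types, so binding in fewer cells and weaker binding per cell cannot be told apart.

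XBP1 becomes an active transcription factor when the ER stress sensor IRE1 splices its messenger RNA. It then binds short elements in the promoters of genes for protein folding and degradation, among them the ER stress response elements, in which a CCACG box is recognised by XBP1 or its relative ATF6 and a CCAAT box by the factor NF-Y. In hepatocytes, which secrete most plasma proteins, this programme sustains the capacity of the ER. Manf and Creld2 are luminal proteins that cells release when the ER is stressed. Dnajb9 (ERdj4) and Dnajb11 (ERdj3) are J-domain co-chaperones of the ER chaperone BiP, and Dnajb9 is also known to repress IRE1. Sdf2l1 forms a complex with Dnajb11 and BiP.

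Reference promoters were available for 4 of the 5 genes, all but Manf, and are shown because they hold the letters of known XBP1 elements (RefSeq, build GRCm38.p6, 250 bases before to 50 bases after the transcription start). This build differs from that of the peaks, so the sequences were not placed on the peaks. Positions count from the start, with -1 for the last base before it. Capitals mark CCACG and CCAAT boxes on either strand, written on the reverse strand as CGTGG and ATTGG. The first 3 lines hold the 250 bases before the start and the last line the first 30 bases from it.
Creld2: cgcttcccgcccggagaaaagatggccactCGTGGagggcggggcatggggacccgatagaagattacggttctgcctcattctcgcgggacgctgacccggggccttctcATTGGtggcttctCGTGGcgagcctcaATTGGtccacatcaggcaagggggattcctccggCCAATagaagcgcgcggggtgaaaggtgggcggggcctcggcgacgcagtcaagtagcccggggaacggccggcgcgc
Sdf2l1: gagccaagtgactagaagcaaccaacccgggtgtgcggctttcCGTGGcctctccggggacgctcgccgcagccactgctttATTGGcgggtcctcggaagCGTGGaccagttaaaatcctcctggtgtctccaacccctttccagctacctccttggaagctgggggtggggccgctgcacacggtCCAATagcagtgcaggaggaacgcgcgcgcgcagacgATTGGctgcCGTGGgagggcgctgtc
Dnajb9: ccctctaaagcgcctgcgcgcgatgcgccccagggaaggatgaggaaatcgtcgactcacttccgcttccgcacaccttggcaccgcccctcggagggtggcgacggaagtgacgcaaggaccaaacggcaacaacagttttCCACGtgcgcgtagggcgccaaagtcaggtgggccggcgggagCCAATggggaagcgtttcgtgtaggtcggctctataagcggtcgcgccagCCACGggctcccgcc
Dnajb11: ggcggcgATTGGcCCACGcctggctgctcg
The stretches lie at chr15:88819396-88819645, plus strand, for Creld2, chr16:17132384-17132633, minus strand, for Sdf2l1, chr12:44210069-44210318, minus strand, for Dnajb9, and chr16:22857845-22857874, plus strand, for Dnajb11.

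Among these promoters, Creld2 held the full ER stress response element (CCAAT, then 9 bases of any kind, then CCACG, searched on both strands like the other motifs) on its reverse strand at positions -126 to -108. The element was found in 39 of 32851 promoters of the table (0.119%). Dnajb11 held the second form of the element (ATTGG, any 1 base, then CCACG) at positions 8 to 18, just after the start, and 12 promoters of the table (0.0365%) held it. Sdf2l1 had neither form, but had 3 CCACG boxes before its start, the nearest at -17 to -13. Dnajb9 had 2 CCACG boxes, and the one at -108 to -104 ran into the palindrome CACGTG. Only its promoter held ACGTG, the core of another XBP1 element, which was found in 19.6% of all promoters. Of the 4 promoters all held a CCACG and a CCAAT box, against 32.8% and 37.4% of all promoters. The only CCACG box of Dnajb11 lay after the start and was that of its second-form element. The 8-base element TGACGTGG was in none of the 4 and in 0.676% of all promoters. The full and second forms each contain both boxes, and TGACGTGG contains ACGTG and a CCACG box, so these counts overlap. Among 24 other genes of the ER stress programme 20 had a promoter in the table, and 8 of them, including Hspa5, which encodes BiP, Hsp90b1 and Dnajc3, held the full element. Herpud1 held the second form and Sec24d the 8-base element. A CCACG box was in 15 of the 20, a CCAAT box in 17 and ACGTG in 8, so the boxes of the 4 promoters are common among such genes. The 5 genes could not be compared with these others in the peak lists, because no mm9 gene positions were at hand.

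The lists differed in length. The silenced lists held 177 peaks in basal liver, 4325 peaks at 6 h and 102 peaks at 48 h. Without silencing there were 2482 peaks for basal liver. Hepatectomy gave 22071 peaks at 6 h, where sham gave 23087, and 7212 peaks at 48 h, where sham gave 4622. Each peak has a score given by the authors, taken as the negative log10 of a p-value, and peaks were ranked by score within their list, with rank 1 for the highest and tied peaks sharing a rank. Since read numbers were not given and scores may be scaled differently from list to list, ranks are compared and scores only shown. Peaks were narrow in the silenced basal and silenced 48 h lists, with median widths of 103 and 94 bp, against 319 bp in basal and 290 bp in 48 h hepatectomy liver. Each condition has 1 library, and so no comparison below has an estimate of the variation among mice. Intervals of shares are exact Clopper-Pearson 95% intervals and cover counting error only. They take the peaks of a window as independent, although several can lie in 1 window.

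In each of the 5 windows the XBP1 site with the highest-scoring peak is called its main site here. It held the highest-scoring peak of the window in every list that had a peak in the window. The main site of Manf had a peak in all 8 lists, and those of Creld2, Sdf2l1, Dnajb9 and Dnajb11 had one in 7 lists each. Peaks of all lists merged into 28177 regions, of which 0.188% had a peak in all 8 lists and 0.444% in 7 or more. All 5 main sites were present in the 5 unsilenced lists, as were 6.6% of the merged regions. Main sites were chosen by score and the merged regions were not, so these shares are no matched background. The 251 highest-scoring basal peaks all overlapped a peak in every unsilenced list made after surgery, so presence there does not set the main sites apart from strong basal peaks. The basal peak of Sdf2l1, at rank 326, was not among those 251. The silenced basal and silenced 48 h lists were those that lacked a main site. With these left out, 5 of 5 main sites had a peak in the remaining 6 lists, a count added after the lists had been seen.

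**Figure D1:**
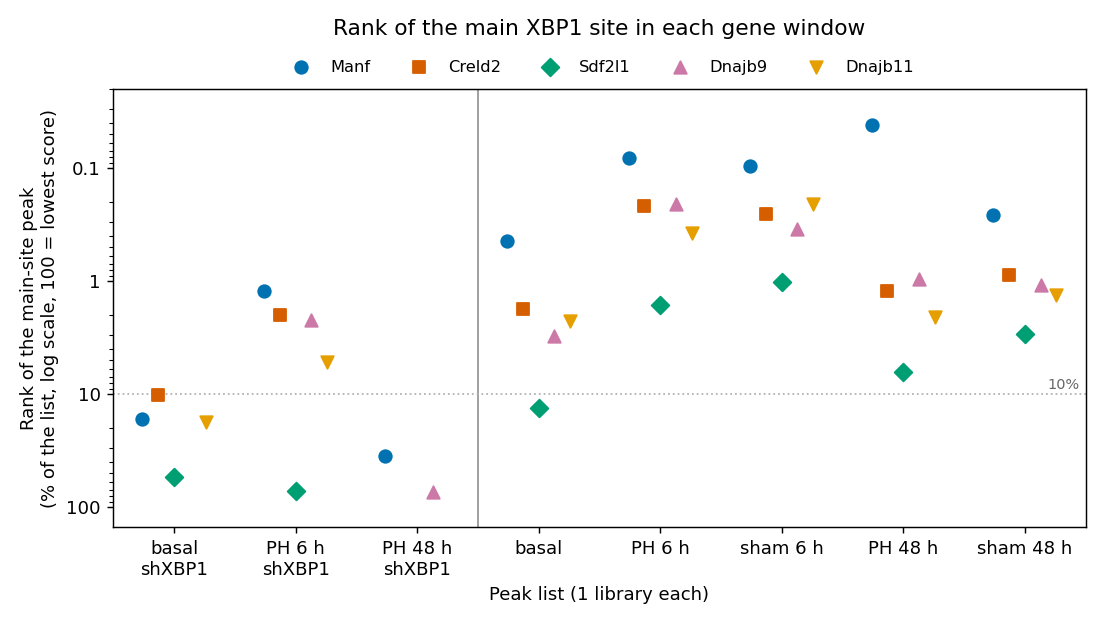
Rank of the peak at the main site of each gene, as a percentage of the peaks in its list (log scale, highest scores at the top), for the 3 silenced lists on the left and the 5 unsilenced lists on the right. Each point is 1 peak of 1 library; by score Manf is highest and Sdf2l1 lowest in every unsilenced list (by score divided by width Manf is not highest in 3 of them), and a missing point means that no peak was called.

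The main site of Manf lay on chromosome 9 (106793507 to 106795145, mm9, over all lists). In silenced livers its best score was 16.2 in basal liver, 133 at 6 h after hepatectomy and 11.4 at 48 h. These scores were at rank 29 of 177, 53 of 4325 and 36 of 102. In unsilenced basal liver the score was 274, at rank 11. At 6 h it was 633 after hepatectomy, at rank 18, and 262 after sham, at rank 22. At 48 h it was 217 after hepatectomy, at rank 3, and 435 after sham, at rank 12. Manf thus had the highest rank of the 5 genes in all 5 unsilenced lists and in the silenced 6 h and 48 h lists, and the only list in which another gene was ahead was that of silenced basal liver, where Creld2 was. The site was also broad, with widths of 903 bp in basal liver, 1623 bp 6 h after hepatectomy and 1536 bp 48 h after sham. The order depended on that width. Ranked by score divided by width, Manf was at rank 118 6 h after hepatectomy, 277 6 h after sham and 56 48 h after sham. Creld2 was ahead of it in these 3 lists, and Dnajb9 and Dnajb11 were ahead in both unsilenced 6 h lists. In the silenced 48 h list Manf was last of all peaks by that measure, at rank 102 of 102, with Dnajb9 at rank 55.

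The main site of Creld2 lay on chromosome 15 (88649377 to 88650458). In silenced livers its best score was 20.5 in basal liver, at rank 18, and 100.48 at 6 h after hepatectomy, at rank 85, and no peak was called at 48 h. Unsilenced basal liver had a score of 151 at rank 44. At 6 h the score was 538 after hepatectomy, at rank 48, and 222 after sham, at rank 59. At 48 h it was 109 after hepatectomy, at rank 89, and 264 after sham, at rank 41. Creld2 was thus within the first 1.97% of the peaks of the silenced 6 h list and of each unsilenced list. By score divided by width it was at rank 16 6 h after hepatectomy and at rank 55 48 h after sham, ahead of the other 4 genes. In the other unsilenced lists it was not first by that measure. It was at rank 125 6 h after sham, behind Dnajb11 at 81, and was behind Manf in basal liver and 48 h after hepatectomy.

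The main site of Dnajb9 lay on chromosome 12 (45310561 to 45311791) and was the only site in its window of 45 kb. In silenced livers no peak was called there in basal liver, the score was 94.5 at 6 h after hepatectomy, at rank 96, and it was 7.21 at 48 h, at rank 75 of 102. Basal unsilenced liver had a score of 108, at rank 75. Values at 6 h were 551 after hepatectomy, at rank 46, and 212 after sham, at rank 79. Values at 48 h were 127 after hepatectomy, at rank 69, and 241 after sham, at rank 50. Dnajb9 was the one gene with a peak in the silenced 48 h list and none in the silenced basal list. The silenced 48 h peak was 87 bp wide, against 867 bp in the unsilenced liver of that state.

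The main site of Dnajb11 lay on chromosome 16 (22857342 to 22858402). In silenced livers its score was 15.2 in basal liver, at rank 31, and 57.4 at 6 h after hepatectomy, at rank 226, and no peak was called at 48 h. In unsilenced basal liver the score was 131, at rank 56. The 6 h scores were 451 after hepatectomy, at rank 83, and 231 after sham, at rank 48. The 48 h scores were 83.3 after hepatectomy, at rank 149, and 213 after sham, at rank 61. As a share of the list, Dnajb11 stood further up the sham list than the hepatectomy list at both times. So did Sdf2l1, and Creld2 did so at 48 h but not at 6 h. For Dnajb9 at 48 h the measures differed. Its rank was 50 after sham and 69 after hepatectomy, but its share was 1.08% after sham and 0.957% after hepatectomy.

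The main site of Sdf2l1, also on chromosome 16 (17131550 to 17133152), was the weakest of the 5 wherever all 5 were called. In silenced livers its score was 10.1 in basal liver, at rank 95, and 11.0 at 6 h after hepatectomy, at rank 3105, and no peak was called at 48 h. Basal liver without silencing had a score of 33.9, at rank 326 or 13.1% down the list. After 6 h the scores were 236 for hepatectomy, at rank 356, and 151 for sham, at rank 235. After 48 h they were 41.7 for hepatectomy, at rank 455, and 104 for sham, at rank 136. Sdf2l1 was thus within the first 10% of the 4 lists made after surgery without silencing and outside it in basal liver. Its peaks at 6 h were nearly as broad as those of Manf, with 1494 bp after hepatectomy and 1411 bp after sham, against 631 bp in basal liver. Ranked by score divided by width it was again last of the 5 in each unsilenced list. By that measure it was at rank 1538 of 7212 48 h after hepatectomy, outside the first 10%, as it also was in basal liver, at rank 866.

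By score, the main sites of the 4 genes other than Sdf2l1 stayed within the first 3.02% of every unsilenced list. By score divided by width, Dnajb11 48 h after hepatectomy, at rank 380 of 7212, and Dnajb9 in basal liver, at rank 115 of 2482, lay outside that share. The rank of the middle gene of the 5 was 56 in basal liver, 48 6 h after hepatectomy and 59 6 h after sham, and 89 48 h after hepatectomy and 50 48 h after sham, although these lists differed in length from 2482 to 23087 peaks. As a share of the list the same ranks were 2.26% in basal liver. At 6 h hepatectomy liver had 0.217% and sham liver 0.256%, and at 48 h hepatectomy liver had 1.23% and sham liver 1.08%. The main sites were wider than most peaks. In each unsilenced list at least 93.7% of the peaks were narrower than any of the 5. Width and score come from the same reads, so these are not separate measures.

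Main sites had 38 peaks in all lists, and 12 other sites of the windows, each weaker than the main site of its own window, had 28. Of these weaker sites 3 reached the highest 10% of a list, with best places of 6.8% for the one of Manf, 5.76% for one of Creld2 and 9.1% for one of Dnajb11. In the silenced 6 h list the weaker sites of Manf and Creld2, at 24.0%, stood ahead of the main site of Sdf2l1, at 71.8%. None of the 12 had a peak in basal liver, with or without silencing, or in the silenced 48 h list. A peak was called at 11 of them in 1 or both of the unsilenced 6 h lists, at 4 in an unsilenced 48 h list and at 3 in the silenced 6 h list. The exception at 6 h was a site in the Creld2 window with 1 peak 48 h after sham, at rank 4119 of 4622. Of the 12, 7 were found in unsilenced 6 h lists alone. Such absence was common among all peaks of these lists. Of all unsilenced 6 h peaks, 10.9% after hepatectomy and 10.5% after sham overlapped a basal peak. A silenced 6 h peak overlapped 18.9% of those after hepatectomy. At 48 h after the same operation, 28.9% of the hepatectomy and 19.4% of the sham peaks were found again.

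**Figure D2:**
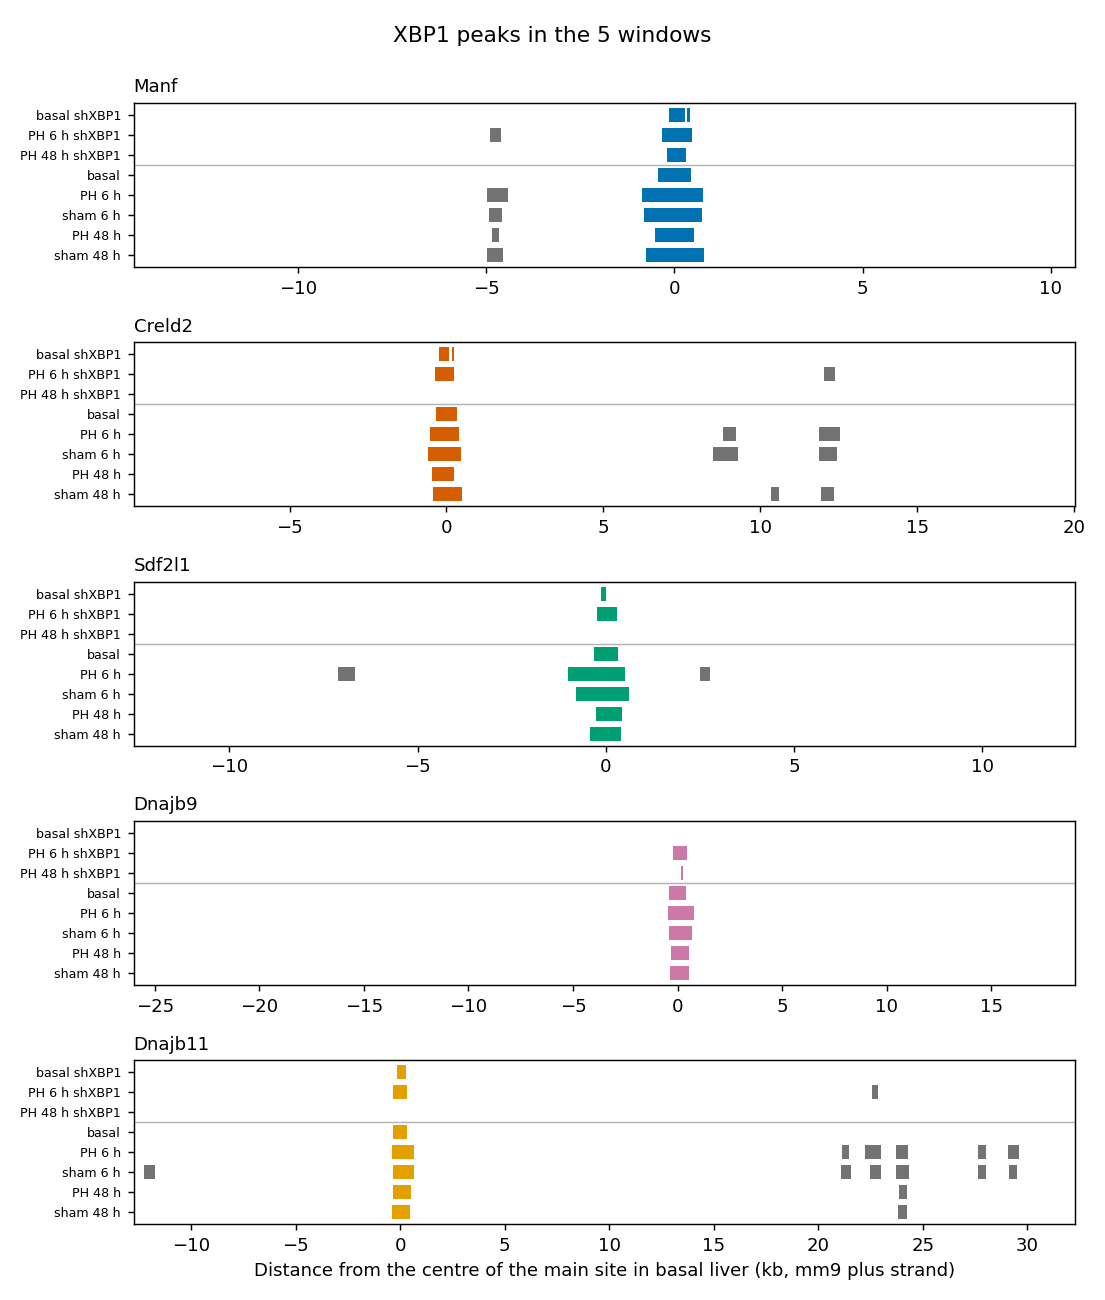
Position of every peak in the 5 windows, 1 row per list with the 3 silenced lists on top, as distance in kb from the centre of the main site in basal liver (bars drawn to scale). Main sites are coloured and other sites grey; the grey sites of Dnajb11 gather 21.3 to 29.3 kb to the right of the main site.

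Of the 12 weaker sites 6 lay in the Dnajb11 window. A group of 5 sites stood between 21.3 and 29.3 kb from its main site, towards higher coordinates, where Ahsg is the next protein-coding gene after Dnajb11 in the gene table. Ahsg encodes fetuin-A, a plasma glycoprotein made by the liver. Both unsilenced 6 h lists had a peak at all 5, and the 48 h lists of both operations had one at the site 24.0 kb away. Its score was 76.6 6 h after hepatectomy, at rank 2008, and 43.9 6 h after sham, at rank 2431. At 48 h it was 17.5 after hepatectomy, at rank 1833, and 11.5 after sham, at rank 3096. The site 22.6 kb away, with a score of 32.2 6 h after hepatectomy, was the one of the 5 with a peak in the silenced 6 h list, where the score was 8.97. The peak lists do not tie any of these sites to a gene.

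The Manf window held 1 weaker site, with its midpoint at -4.69 kb from that of the main one (6 h after hepatectomy). Its score was 23.1 in the silenced 6 h list and 94.0 in the unsilenced one after hepatectomy, at ranks 1038 and 1500. After sham at 6 h it was 24.2, at rank 6593. At 48 h it was 11.5 after hepatectomy, at rank 3770, and 30.3 after sham, at rank 808. At 6 h the site thus stood further up the hepatectomy list and at 48 h further up the sham list. In the Creld2 window a site 12.2 kb to the right had a score of 23.1 in the silenced 6 h list and 89.2 in the unsilenced one after hepatectomy. It was 61.8 at 6 h after sham and 16.0 at 48 h after sham, and no peak was called 48 h after hepatectomy. The Sdf2l1 window had 2 weaker sites, both called 6 h after hepatectomy only, with scores of 42.4 and 10.25.

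The silenced livers show which peaks at these genes were called again where XBP1 had been silenced. Virus, liposomes and read numbers may also differ between silenced and unsilenced livers, and cannot be told apart from silencing here. Peak lists hold no measure of Xbp1 expression, so the degree of silencing in each liver is not known. A peak was called kept where a peak of the silenced list overlapped it by at least 1 bp. In basal liver 4 of the 5 peaks were kept (80.0%, 28.4 to 99.5%), those of Manf, Creld2, Sdf2l1 and Dnajb11, against 4.75% of all basal peaks and 39.4% of the highest-scoring 10% of them. At 6 h after hepatectomy 8 of 15 peaks were kept (53.3%, 26.6 to 78.7%), against 18.9% of all peaks and 87.6% of the highest-scoring 10%. These 8 were the 5 main sites and 3 of the 10 peaks at weaker sites. At 48 h 2 of 7 peaks were kept (28.6%, 3.67 to 71.0%), those at the main sites of Manf and Dnajb9, against 0.915% of all peaks and 8.03% of the highest-scoring 10%. In each state the highest-scoring peaks were kept at a higher share than the whole list, and the part of the score in the shares of the 5 genes was not tested. The basal peak of Sdf2l1 was kept although it ranked outside the highest 10%.

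The result depended on the silenced library used and on widths. Set against the silenced 6 h list, 5 of 5 basal peaks and 6 of 7 peaks of 48 h after hepatectomy had a counterpart, against 71.1% and 42.6% of all peaks of these lists and 99.2% and 89.6% of their highest-scoring 10%, near which the shares of the 5 genes lie. Where 50% or more of both peaks had to overlap, 20.0% of the basal and 0% of the 48 h peaks were kept, where the silenced peaks are narrow. In the silenced basal list the main sites of Manf and Creld2 were each called as 2 separate peaks, of 422 and 61 bp for Manf and of 298 and 73 bp for Creld2, within the single peak of the unsilenced list. Every silenced peak in the windows lay on an unsilenced peak of the same state. They numbered 6 of 6 in basal liver, 8 of 8 at 6 h and 2 of 2 at 48 h, against 89.3%, 98.2% and 76.5% of all silenced peaks and 90.5%, 100% and 91.7% of the highest-scoring 10%. XBP1 that remained after silencing and other signal cannot be told apart here.

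The 5 main sites kept different places in the silenced 6 h list. Manf was at 1.23% of that list, Creld2 at 1.97%, Dnajb9 at 2.22% and Dnajb11 at 5.23%, whereas Sdf2l1 was at 71.8%. The unsilenced list of the same state had Manf at 0.0816%, Creld2 at 0.217%, Dnajb9 at 0.208%, Dnajb11 at 0.376% and Sdf2l1 at 1.61%. All 5 were thus among the strongest 10% of the unsilenced peaks, of which 1944 had a silenced counterpart, at a median of 24.5% of the silenced list. Of these counterparts 90.8% ranked ahead of that of Sdf2l1, while 11.2% or fewer ranked ahead of those of the other 4 genes. The counterparts were not matched for unsilenced rank, and these 4 genes stood within the first 0.376% of the unsilenced list. Sdf2l1 also had the lowest rank of the 5 before silencing. In the silenced basal list it stood at 53.7%, against 10.2% for Creld2, 16.4% for Manf and 17.5% for Dnajb11. That order depended on width. By score divided by width Dnajb11 was last of the 4 genes called there, at rank 166 of 177, and Sdf2l1 was at rank 94.

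The silenced lists had 6 peaks in the windows in basal liver, 8 at 6 h and 2 at 48 h, against 5, 15 and 7 in the unsilenced livers. The silenced count was lower in 2 of the 3 states and higher in basal liver. With 1 library each, these differences have no replicate check, and 3 pairs of unlike states allow no exact permutation p under 0.25, so none is given. The count of basal liver is raised by the split peaks of Manf and Creld2.

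**Figure D3:**
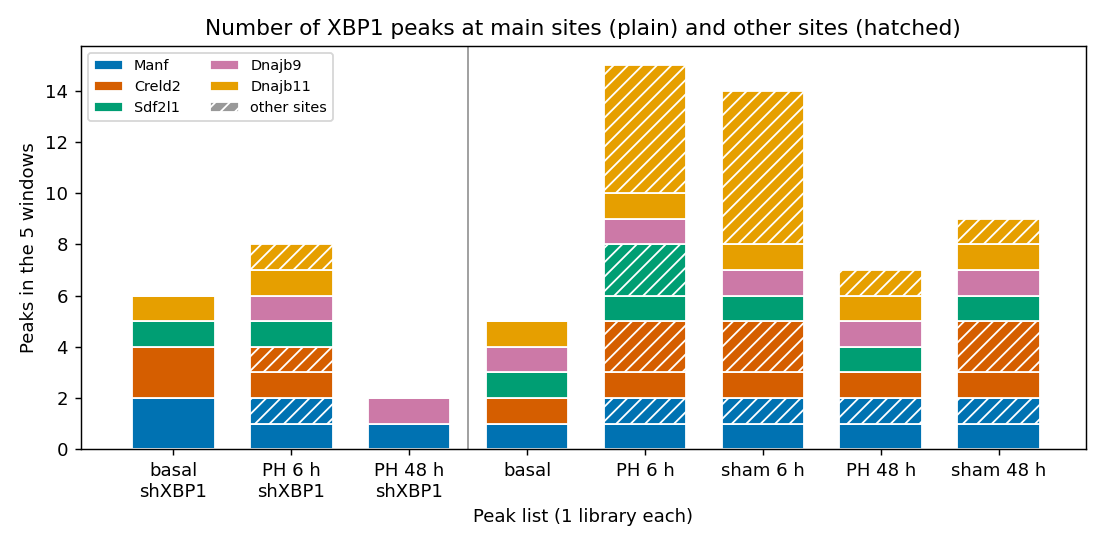
Number of peaks in the 5 windows per list, stacked by gene, with main sites plain and other sites hatched, silenced lists on the left. The unsilenced 6 h lists hold 15 peaks after hepatectomy and 14 after sham, and the excess over basal liver lies at hatched sites.

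The sham operation separates removal of liver from surgery itself. At 6 h the hepatectomy list had 15 peaks in the windows and the sham list 14. A sham peak overlapped 13 of the 15 hepatectomy peaks (86.7%, 59.5 to 98.3%), against 76.9% of all peaks, and 13 of the 14 sham peaks (92.9%, 66.1 to 99.8%) overlapped a hepatectomy peak, against 74.1% of all. Both shares lie near the background of their lists, which falls inside their intervals. With the Dnajb11 window holding 6 of the 15 and 7 of the 14 peaks, no conclusion is drawn from these intervals. Of the highest-scoring 10%, 99.9% of hepatectomy and 99.6% of sham peaks had a counterpart. The exceptions were the 2 weaker sites of Sdf2l1, called after hepatectomy only, and a site at -12.0 kb in the Dnajb11 window, called after sham only at rank 10786. Main sites of all 5 genes were present after both operations.

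At 48 h the hepatectomy list had 7 peaks in the windows and the sham list 9. All 7 overlapped a sham peak (100%, 59.0 to 100%), against 47.1% of all hepatectomy peaks and 92.4% of their highest-scoring 10%. In turn 7 of the 9 sham peaks (77.8%, 40.0 to 97.2%) overlapped a hepatectomy peak, against 72.5% of all and 99.6% of the highest-scoring 10%. Both sham peaks without a counterpart lay in the Creld2 window, 10.5 and 12.1 kb from its main site. As a share of the list, Manf was at 0.0416% after hepatectomy and at 0.26% after sham, and Sdf2l1 was at 6.31% after hepatectomy and at 2.94% after sham. No test of these differences was possible with 1 library each.

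Over time the main sites were called in every unsilenced list, and the weaker sites were called after surgery alone. Most basal peaks were likewise found after surgery. At 6 h a counterpart was present for 98.3% of all basal peaks after hepatectomy and 98.4% after sham. At 48 h these shares were 88.0% after hepatectomy and 82.3% after sham. Of the windows, 5 of 5 had a peak in basal liver, against 3.84% of 45 kb tiles of the genome. All 5 had one 6 h after hepatectomy and 6 h after sham, against 19.8% and 20.2% of tiles, and 48 h after hepatectomy and 48 h after sham, against 9.27% and 6.45% of tiles. In silenced livers the windows with a peak were 4 in basal liver, 5 at 6 h and 2 at 48 h, against 0.215%, 6.24% and 0.145% of tiles. The windows were drawn around genes known as XBP1 targets, so this contrast with the genome is a description.

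Peaks seen after surgery were in part those of basal liver. After hepatectomy 5 of 15 peaks at 6 h (33.3%, 11.8 to 61.6%) and 5 of 7 at 48 h (71.4%, 29.0 to 96.3%) overlapped a basal peak, against 10.9% and 30.3% of all peaks and 63.7% and 90.6% of the highest-scoring 10%. After sham they were 5 of 14 at 6 h (35.7%, 12.8 to 64.9%) and 5 of 9 at 48 h (55.6%, 21.2 to 86.3%), against 10.5% and 44.0% of all peaks and 60.2% and 98.9% of the highest-scoring 10%. In each list the 5 were the main sites. The 4 comparisons share the basal library. Of the 6 h peaks, 7 of 15 after hepatectomy and 8 of 14 after sham were found again at 48 h after the same operation, against 28.9% and 19.4% of all peaks and 88.8% and 78.5% of the highest-scoring 10%. Fewer sites and fewer reads in the basal and 48 h libraries cannot be told apart.

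**Figure D4:**
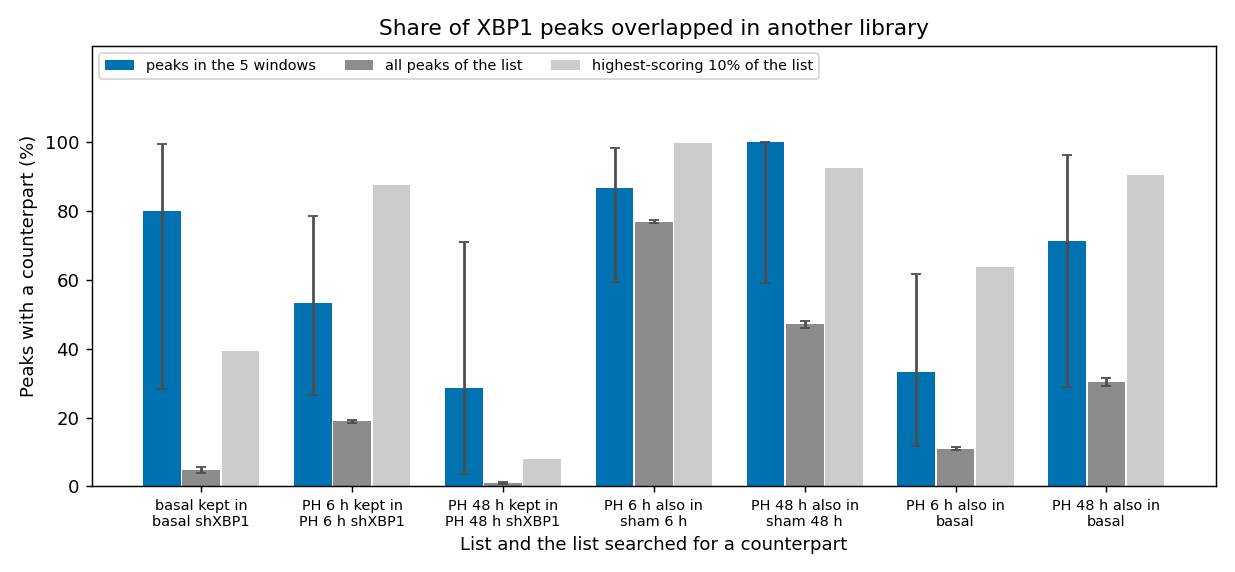
Share of peaks, in percent, that overlap a peak of another library by at least 1 bp, for peaks in the 5 windows (blue), all peaks of the list (dark grey) and the highest-scoring 10% of the list (light grey). Error bars are 95% Clopper-Pearson intervals, and the blue bars stand at 80.0%, 53.3% and 28.6% in the 3 comparisons with silenced livers.

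The position of the main sites varied little between the operations. The midpoint of the peak 6 h after hepatectomy differed from that after sham by a median of 17.0 bp over the 5 genes, against 39.5 bp over 16173 pairs of peaks in these lists. The largest of the 5 differences, hepatectomy minus sham, was that of Sdf2l1, with -150.5 bp. At 48 h the median was 33.5 bp, against 43.5 bp over all pairs, and Creld2 differed most, with -128.5 bp. Between silenced and unsilenced liver 6 h after hepatectomy the median was 124.5 bp, against 45.5 bp over all pairs. There Sdf2l1 differed by 277 bp, Dnajb11 by -153.5 bp and Manf by 124.5 bp, where a positive value means higher coordinates in the silenced liver. Silenced peaks at these sites were narrower, with 812 bp in silenced and 1623 bp in unsilenced liver at Manf, and 544 bp in silenced and 1494 bp in unsilenced liver at Sdf2l1. The part of peak width in these shifts was not tested.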

How the data were processed

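XBP1 ChIP-seq of mouse liver was analysed from 8 peak lists, 1 per library. An input library was not analysed here. Bowtie2, MACS 1.4.2 and the build mm9 are named per the submitters' processing notes. Not given in the sources used here are settings, read numbers and whether input served as control, so depth is unknown. Scores deposited by the authors were read as −log10 of p-values, a unit that no label states. The lowest scores of the lists lay between 4.33 and 5.27, near the 5 that a p-value limit of 1e-05 gives. The 4.33, in the silenced 48 h list, lies under that limit, so the unit is not settled.

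Groups came from sample titles. Peaks were assigned to the mm9 windows by midpoint, with coordinates 1-based. The windows were 9:106780001 to 106805000 for Manf, 15:88640001 to 88670000 for Creld2, 16:17120001 to 17145000 for Sdf2l1, 12:45285001 to 45330000 for Dnajb9 and 16:22845001 to 22890000 for Dnajb11. The windows were given as mm9 and no mm9 annotation was used, so a peak in a window is not assigned to a transcript. Peak lists hold no expression values, so the labelled tissue was not checked against marker genes. All 5 genes were named, a rule that covers every peak in their windows. The genes, windows and lists were chosen with earlier results of these data known. The highest decile holds peaks ranked within the first 10% of a list, ties included. Tiles of 45 kb ran from the start of each chromosome to the last peak of any list. Promoter sequences came from RefSeq (GRCm38.p6), as did the order of neighbouring genes, used by name only.

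Python 3.11.15, NumPy 2.4.6, pandas 2.3.3, SciPy 1.17.1 and matplotlib 3.10.9 were used. Overlap counting was tested on simulated lists and with bedtools 2.31.1. Alternatives were other rules for windows, ranks, overlaps, tiles and promoter length. Main sites alone, and lists without the silenced basal and 48 h libraries, were chosen after seeing the data.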

Additional observations from a re-analysis of the deposited data

Results flagged for a closer look

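The number of peaks in the 5 windows moved in opposite directions between states, with 1 library per condition, and none of these differences between states was tested. Hepatectomy minus sham was 1 peak at 6 h and -2 peaks at 48 h. The 48 h difference came from the Creld2 window, with 1 peak after hepatectomy and 3 after sham. Silenced minus unsilenced was 1 peak for basal liver. For hepatectomy it was -7 peaks at 6 h and -5 peaks at 48 h. In basal liver the silenced list held a pair of peaks at each of the main sites of Manf and Creld2 and none at Dnajb9.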

How the results depend on the processing

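Counts of windows with a peak were the same in all 8 lists under any overlap with the window and under windows reduced to their middle, and 7 of 8 stayed within 1.5 times when only scores of at least the list median were used. That setting left 1 window and 1 peak in the silenced 48 h list and 3 peaks in the silenced basal list. The middle of the windows held 9 peaks 6 h after hepatectomy and 8 after sham. The sites far from the main site of Dnajb11 drop out by construction, as does, after hepatectomy, the site at -6.89 kb in the Sdf2l1 window. Requiring 50% or more of both peaks to overlap, 20.0% of the basal and 0% of the 48 h hepatectomy peaks were kept after silencing; against the silenced 6 h library these shares were 100% and 85.7%. For main sites only, 100% were kept 6 h after hepatectomy, 100% were shared with sham at 6 h, and 100% were found in basal liver in each of the 4 lists after surgery. Without the silenced basal and silenced 48 h lists, 5 main sites had a peak in every list, against 1. The last of these counts can only rise when lists are left out. Every main site had a basal peak and no weaker site did, so keeping main sites alone fixes the shares found in basal liver. The cause of the other changes was not tested. In the 250 bases before the start the second form of the ER stress response element was found in 0 of 4 promoters. A CCACG box was found there in 3 of 4. Ranks by score divided by width were marked as moved in 28 of 36 cases. None of 36 was so marked when peaks over 2 kb and other chromosomes were left out. A rank from 1 library has no estimate of sampling error, so these marks only describe the size of the change. Midpoints within 250 bp moved no share beyond its interval. Tiles of 25 kb lowered the background to between 0.0817% and 13.5%. The labels give no replicate numbers, so no replicate block could be fitted. Unknown read numbers limit every comparison of list lengths, and 1 library per condition leaves no spread between animals.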
